A study of Mus musculus with 4 samples.

Results

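Calbindin (Calb1), calretinin (Calb2) and 8 genes of the calmodulin kinase group (Camk2a, Camk2b, Camk2d, Camk2g, Camk4, Camk1d, Camk1g and Camkk2) were followed through the differentiation of granule cells born in the adult mouse dentate gyrus. The 10 genes were taken by name from the 45706 features of the deposited count matrices, and all 10 were measured. The data are single-nucleus RNA sequencing of 4 libraries, named w1, w2, w4 and w8 for the 1, 2, 4 and 8 weeks that separated tamoxifen from tissue collection. Each library is 1 pool of the left dentate gyri of 4 mice of both sexes, and every animal carried a tamoxifen-inducible Cre (CreERT2) and the CAG-driven floxStop-Sun1/sfGFP reporter, received tamoxifen as a young adult, and contributed nuclei sorted for the green nuclear envelope tag. There is thus no library without recombination. The tag marks the cells in which Cre was active at the time of tamoxifen and whatever descended from them, including some glia.

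Calbindin and calretinin are EF-hand proteins that bind calcium in the cytoplasm, and in the dentate gyrus they are the classical histological markers of mature and of immature granule cells, respectively. Calmodulin kinases are serine/threonine kinases switched on by calcium-loaded calmodulin. CaMKII is a holoenzyme built from α, β, γ and δ subunits, each from its own gene, and is best known for synaptic plasticity. CaMKIV, a nuclear kinase that phosphorylates CREB, and the CaMKI kinases, which act on axons and dendrites, are further activated by the upstream kinases CaMKK1 and CaMKK2.

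Within the holoenzyme, an active CaMKII subunit phosphorylates a threonine in the regulatory segment of its neighbour, which then stays active, and the genes of the family resemble each other there. The coding bases of this stretch show how far apart Camk2b, Camk2d and Camk2g are there. Camk2a was not compared. Reads that matched more than 1 gene were not counted. The sequences below are from GENCODE M21 transcripts on GRCm38, with the codon of that threonine in capitals.

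Camk2b: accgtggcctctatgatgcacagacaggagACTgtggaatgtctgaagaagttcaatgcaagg

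Camk2d: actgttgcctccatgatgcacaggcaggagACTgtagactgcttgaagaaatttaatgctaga

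Camk2g: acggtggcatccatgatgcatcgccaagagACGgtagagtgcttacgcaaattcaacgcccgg

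Each stretch lies in coding exon 11 of its transcript, at chr11:5988967-5989029 on the minus strand for Camk2b, chr3:126797711-126797773 on the plus strand for Camk2d and chr14:20760409-20760471 on the minus strand for Camk2g. Of the 63 bases, Camk2b and Camk2d shared 51, Camk2d and Camk2g 45, and Camk2b and Camk2g 43. Even within this conserved segment Camk2b, Camk2d and Camk2g therefore differed at many bases. The libraries were made with 3' end chemistry, and how many reads fell in this segment was not examined. No 60-base window of the annotated exons of any of the 10 genes occurred in a transcript of another gene. Introns, which were also counted, were not searched. For Camk4, an opposite-strand gene, 2310026I22Rik, lies within the same interval and had 151 UMIs against 15229, and no other overlapping gene exceeded 35 UMIs.

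Calb1 (ENSMUSG00000028222) spans chr4:15881264-15908064 and Calb2 (ENSMUSG00000003657) chr8:110137502-110168210. Camk2b (ENSMUSG00000057897) is on chromosome 11, Camk2d (ENSMUSG00000053819) on chromosome 3, Camk2g (ENSMUSG00000021820) on chromosome 14, and Camk2a (ENSMUSG00000024617) and Camk4 (ENSMUSG00000038128) both on chromosome 18. Camk1d (ENSMUSG00000039145) covers 421 kb of chromosome 2, with 98.2% of that length intronic, and Camk1g (ENSMUSG00000016179) 24 kb of chromosome 1. Camkk2 (ENSMUSG00000029471) is on chromosome 5. These genes differ widely in length, and levels are therefore compared between cell groups for the same gene. Shares of the UMIs of a gene pair are read only for their change between cell groups.

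The authors sorted 14367 nuclei into 13 clusters, and 9 of them make up the granule cell lineage. It begins with radial glia-like cells (RGL) and neural progenitor cells (NPC). Neuroblasts form the clusters NB1 and NB2, and neurons that are still immature form GCimm1 and GCimm2. Young granule cells (GCyoung) and the mature granule cells of GCmat1 and GCmat2 complete it. Levels are given in CPM, the UMIs of a gene scaled to a common total of 1000000 UMIs of the same nuclei. The libraries held 2867 to 4243 nuclei and 13227971 to 28595331 UMIs, and pairs of libraries shared 2 to 7 barcodes. The granule neuron markers Prox1 and Rbfox3 were at 321 CPM or more and 535 CPM or more in every cluster from NB1 to GCmat1. Of the interneuron markers, Gad1 reached 89.6 CPM in GCimm1 and Lhx6 no more than 0.641 CPM in any lineage cluster. The Cajal-Retzius cell markers Trp73, Lhx5, Lhx1, Ndnf and Reln summed to 86.2 CPM in NPC of w1. In NB1 of w1, w2 and w4 they summed to 6.44, 23.7 and 85.1 CPM. Of the mossy cell markers, Drd2 was at 47.1 CPM in NPC and 0 CPM in RGL. Calcrl was at 177 CPM in RGL and 18.6 CPM in NPC, but higher in oligodendrocyte precursors (290 CPM) and pericytes (234 CPM). The third, Csf2rb2, was at 0 CPM in both RGL and NPC. With 1 pool per week, weeks were not tested against each other, and intervals at 95% (exact Poisson for levels and exact binomial for shares and ratios) cover counting error only. Clusters were compared with edgeR on UMIs summed per library and cluster, and a call required both a 1.5-fold difference and an adjusted p no higher than 0.05. The authors drew the clusters from these same measurements, so that these tests describe how the clusters differ and are no independent evidence of a difference.

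**Figure D1:**
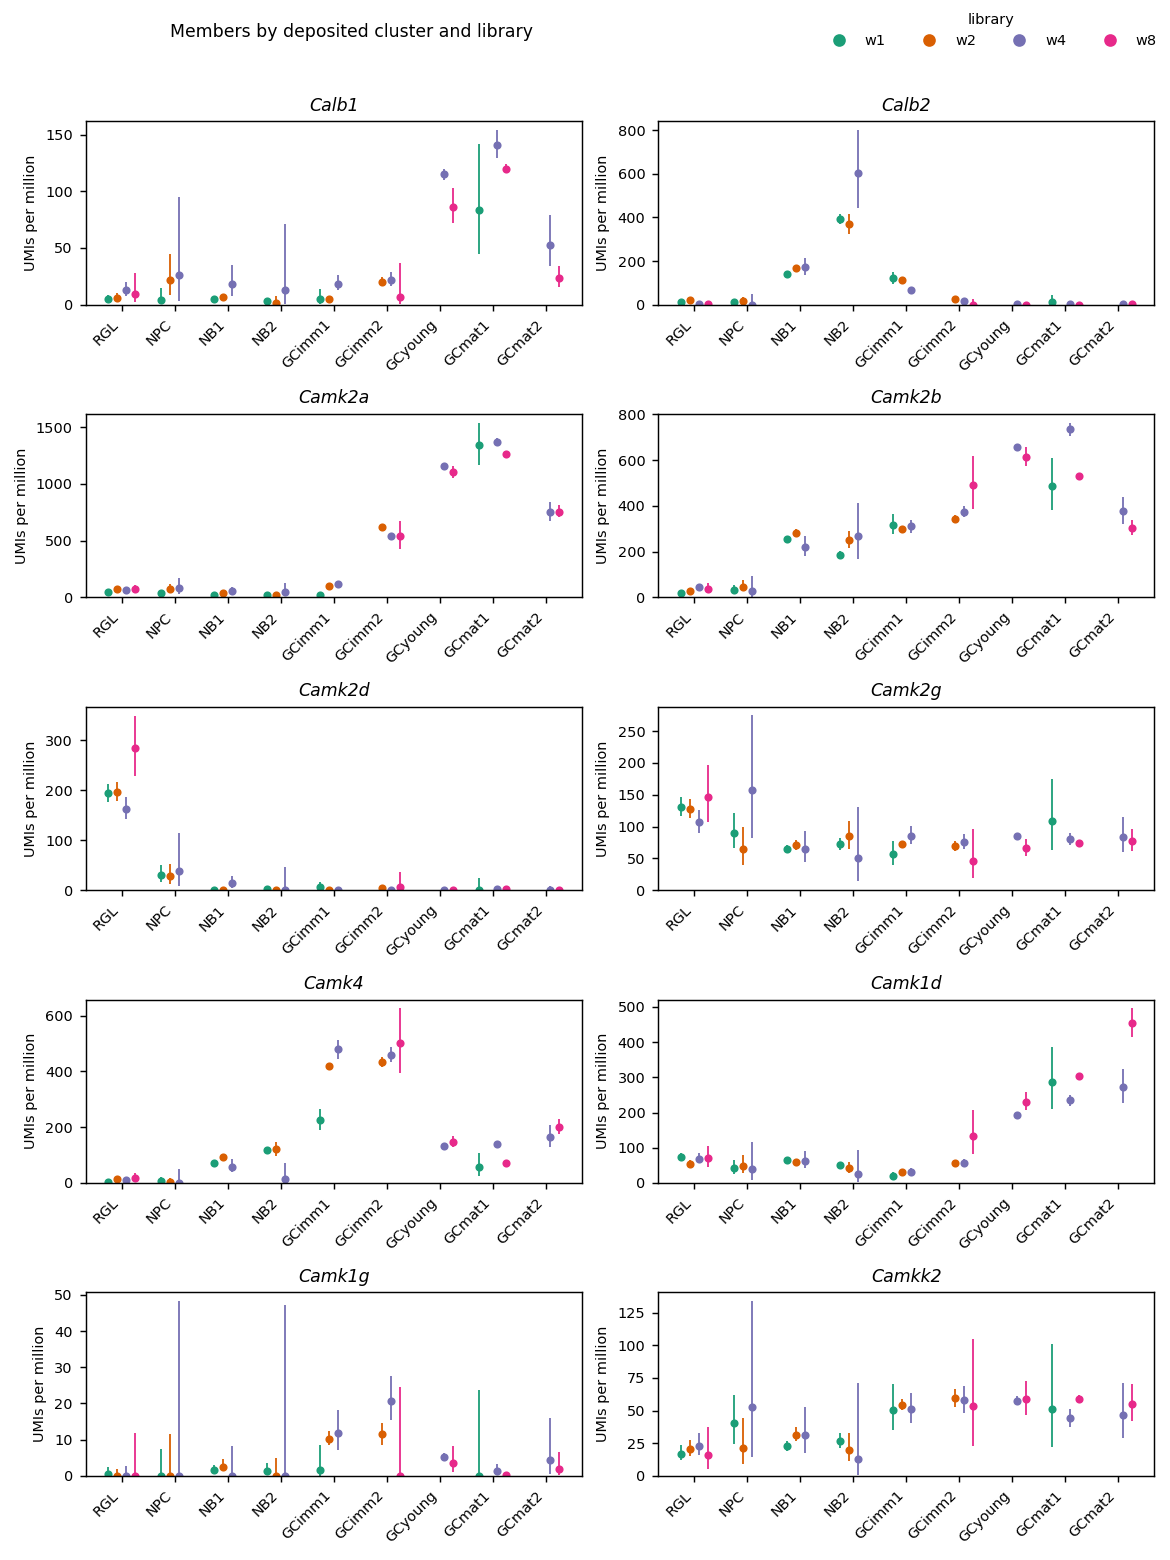
Level in CPM (vertical axes, linear, 1 scale per gene) of the 10 genes in the 9 lineage clusters, 1 point per library with at least 10 nuclei and its 95% Poisson interval. Calb2 was highest in NB2 in each of w1, w2 and w4, Camk2d was above 100 CPM in RGL and near 0 from NB1 on, and Camk4 was highest in GCimm1 and GCimm2.

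Most of the 10 genes changed in succession. Camk2d left the lineage first, and Calb2, Camk2b and Camk4 arrived at the neuroblast stage. Camkk2 increased in GCimm1, and Camk2a had its largest rise between neighbouring clusters in GCimm2. Calb1 and Camk1d also rose in GCimm2, but their largest rise came in GCyoung. From RGL to NPC, 3 of the 10 genes fell, against 29.5% of the 13513 genes tested that were called in either direction (13.7% higher and 15.9% lower), and the median log2 change was -0.70 for the 10 genes and -0.05 for all genes. From NPC to NB1, 4 rose, Camk1d among them only under some settings, and 1 fell (29.3% of all genes called, 14.7% higher and 14.6% lower), and the medians were 0.32 and 0.06. From NB1 to NB2, Calb2 alone was called (2.94% of all genes, 1.81% higher and 1.13% lower), with medians of -0.29 and -0.04. At the entry into the immature neuron state, NB1 to GCimm1, 4 rose and 1 fell (12.5% of all genes, 7.76% higher and 4.75% lower), and the medians were 0.29 and -0.01. From GCimm1 to GCimm2, 3 rose and 1 fell (9.43% of all genes, 6.52% higher and 2.91% lower), with medians of 0.51 and -0.02. Most genes of the group were called between GCimm2 and GCyoung, where 4 rose and 3 fell (18.9% of all genes, 9.27% higher and 9.62% lower), with medians of 0.31 and 0.03. Between GCyoung and GCmat1 Camk1g alone was called (3.85% of all genes, 1.6% higher and 2.25% lower), with medians of 0.22 and -0.00. Between the mature clusters, GCmat1 to GCmat2, 1 rose and 3 fell (7.3% of all genes, 3.01% higher and 4.28% lower), and both medians were -0.14. Over the long step from NB1 to GCmat1, 7 rose and 1 fell (40.1% of all genes, 20.2% higher and 19.9% lower), with medians of 1.11 and -0.04. Only w1 and w4 entered the fit with both clusters of this step, and GCmat1 of w1 was 17 nuclei.

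**Figure D2:**
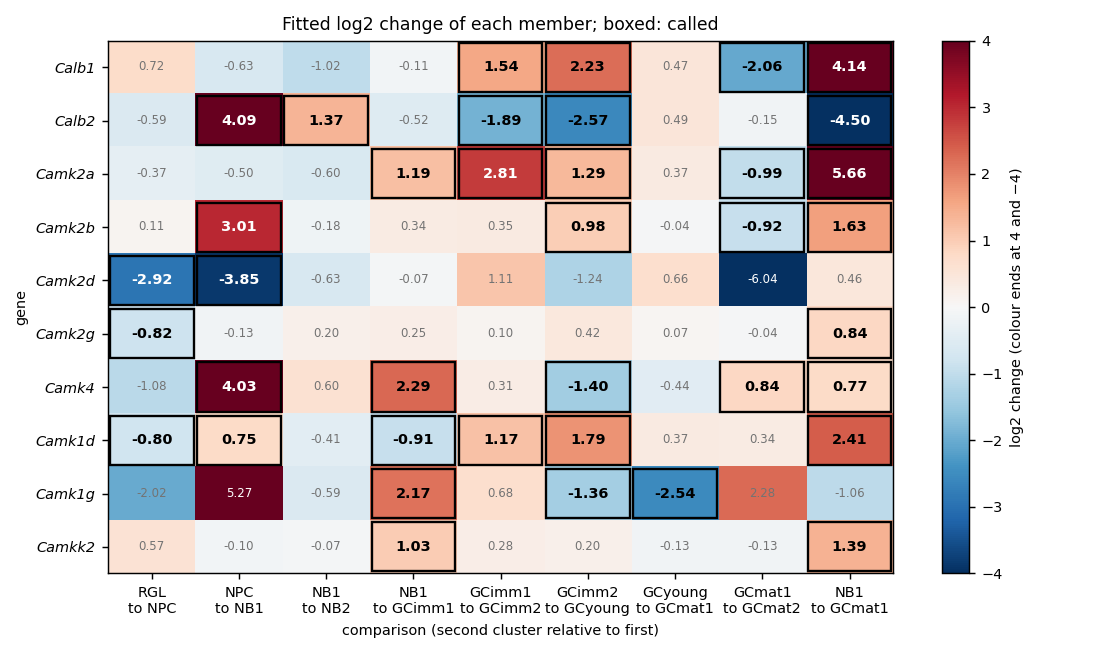
Fitted log2 change of each gene (rows) in the 9 comparisons (columns), second cluster relative to first, with called changes boxed and in bold. The values of 4.09 for Calb2 and 4.03 for Camk4 from NPC to NB1 and of 5.66 for Camk2a from NB1 to GCmat1 stand out, while large values that are not boxed, such as -6.04 for Camk2d from GCmat1 to GCmat2, come from clusters with few or no UMIs of the gene.

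Calretinin was highest in the neuroblasts, above all in NB2. Calb2 stood at 142, 166 and 173 CPM in NB1 of w1, w2 and w4 and at 391, 368 and 602 CPM in NB2 of the same libraries. NPC had 5 UMIs of it in each of w1 and w2 and none in w4, where the limit set by a count of 0, taken here and below as 3 counts, is 39.3 CPM, and all neuroblast values lay above these. The rise from NPC to NB1 amounted to a log2 change of 4.09 (SE 0.38, adjusted p = 3.5e-13) and the further rise to NB2 to 1.37 (SE 0.17, adjusted p = 4.4e-08), both in 3 of 3 libraries. NB2 was thus the cluster with the highest Calb2, and 76.6% of its nuclei had at least 1 UMI, against 37.6% in NB1. NB1 was little above GCimm1 in this respect, with Calb2 but no Calb1 in 36.6% of NB1 and 33.6% of GCimm1 nuclei. In oligodendrocytes, which should lack the gene, 6.67% of 45 nuclei had a UMI at a median of 4801 UMIs per nucleus, against 4961 in NB2. Among female nuclei alone the rise to NB2 was 1.03 and missed the threshold (adjusted p = 0.056).

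Calb2 was then lost over several steps. In GCimm1 it was at 122, 115 and 65.2 CPM in w1, w2 and w4, below NB1 of the same library each time, but the log2 change of -0.52 (SE 0.17, adjusted p = 0.027) was smaller than the fold required. Without w1 the difference was -0.66 (adjusted p = 0.019) and past both thresholds. In GCimm2 the gene was down to 27.7 CPM in w2 and 17.7 CPM in w4, a fall of log2 -1.89 from GCimm1 (SE 0.22, adjusted p = 1.4e-09) seen in both libraries. GCyoung of w4 had 2.72 CPM, from 43 UMIs in 1979 nuclei, and the 188 GCyoung nuclei of w8 had no UMI (limit of 3 counts, 2.09 CPM). The log2 change from GCimm2 to GCyoung was -2.57 (SE 0.35, adjusted p = 8.8e-08), and it rested on w4, since in w8 neither cluster had a UMI; without w4 the fitted value was -5.21 against a cluster with no UMI, which is no bound, and the adjusted p was 0.63. In GCmat1 the level of 0.276 CPM in w8 was 7 UMIs among 2927 nuclei. GCmat1 of w4 had 3.60 CPM, the ratio of w8 to w4 being 0.0767 (interval 0.0259 to 0.207), and w4 as a whole held 12.8 CPM of Calb2 against 0.350 CPM in w8.

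Calbindin took the opposite course. Calb1 was at 4.58 CPM in GCimm1 of w1, 4.57 CPM in w2 and 18.5 CPM in w4, and at most 17.9 CPM in NB1 and NB2. These are levels at which other cell types that should lack the gene also stood, with 7.21 CPM in RGL and 13.7 CPM, from 3 UMIs, in oligodendrocytes. RGL, NB1 and GCimm1 were each higher in w4 than in w1, by 2.62-, 3.46- and 4.03-fold, and the level of Calb1 over all nuclei of a library was 5.37 CPM in w1, 8.82 CPM in w2, 94.4 CPM in w4 and 112 CPM in w8. Whether RNA from other nuclei of the pool contributed to these low values was not tested.

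From GCimm1 to GCimm2 Calb1 rose by a log2 change of 1.54 (SE 0.27, adjusted p = 2.8e-05), from 4.57 to 20.2 CPM in w2 and from 18.5 to 22 CPM in w4. The size of this first step came from w2, and without that library it was 0.40 (adjusted p = 0.83); among male nuclei alone it was 0.94 (adjusted p = 0.4). The second step, to GCyoung, was larger. The gene went from 22 to 115 CPM in w4 and from 6.66 to 86.4 CPM in w8, a log2 change of 2.23 (SE 0.24, adjusted p = 2.3e-10) that stayed called under every alternative with a test, between 2.12 and 2.72. From GCyoung to GCmat1 the level was 141 CPM in w4, 120 CPM in w8 and 83.2 CPM in the 17 nuclei of w1, and the log2 change of 0.47 missed the threshold (adjusted p = 0.17). GCmat2, by contrast, had 53.0 CPM in w4 and 23.5 CPM in w8, below the lowest GCmat1 library, and the fall was log2 -2.06 (SE 0.26, adjusted p = 3.4e-08). This is the smaller group of mature granule cells, 209 nuclei, rich in the active granule cell markers Bdnf, Sorcs3, Acvr1c and Nrxn3, which summed to 4063 to 5555 CPM there and to 675 to 1812 CPM in GCmat1.

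The exchange of calretinin for calbindin was also read within nuclei. To remove differences in depth, each nucleus was thinned to 2000 UMIs. Calb2 without Calb1 was then found in 51.5% of NB2, 16.3% of GCimm1, 5.01% of GCimm2 and 0.138% of GCyoung nuclei. The share with Calb1 alone was 1.15% in GCimm1, 3.47% in GCimm2, 19.3% in GCyoung and 19.0% in GCmat1. At the same depth NPC had a share of 3.4% with Calb1 alone (interval 1.38 to 6.88%). The 45 oligodendrocytes had one of 4.44% (interval 0.543 to 15.1%) beside 2.22% with Calb2 alone (interval 0.0562 to 11.8%). The Calb1 share of GCimm2 (interval 2.42 to 4.82%) was not above these groups. With nuclei pooled over libraries, it was above RGL, at 1.02% (interval 0.559 to 1.71%), and above GCimm1 (interval 0.765 to 1.66%). These shares were not split by library. The Calb1 level of GCimm2 over GCimm1 was 4.41-fold in w2 (interval 3.11 to 6.32) and 1.19-fold in w4 (0.745 to 1.94). The part of the library mix in the pooled difference was not tested. Nuclei with UMIs of both genes were rare. Without thinning they made up 1.12% of GCimm2 (interval 0.562 to 2.00%), where the product of the 2 separate shares would give 1.47%, and they were at most 1.24% in any cluster, NB2. Over all libraries, Calb1 took 5.44% of the UMIs of the pair in GCimm1, 45.9% in GCimm2 and 97.8% in GCyoung. By library, the share in GCimm1 was 3.61% in w1, 3.83% in w2 and 22.1% in w4. In GCimm2 it was 42.1% in w2 and 55.4% in w4. From NPC to GCmat2 the interval of the share with both held the product of the separate shares in every cluster. In RGL it did not, with 6 of 1387 nuclei, or 0.433% (interval 0.159 to 0.939%), against 0.146%, but with nuclei thinned to 2000 UMIs it was 1 of 1372 nuclei (interval 0.00185 to 0.405%), which held the product of 0.0271%.

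**Figure D3:**
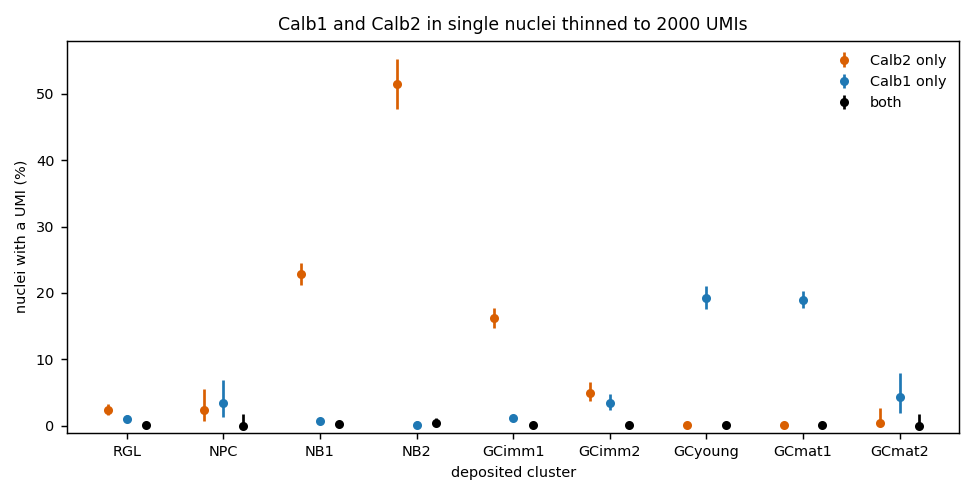
Percent of nuclei with a UMI of Calb2 only, Calb1 only or both in each lineage cluster (horizontal axis), after thinning every nucleus to 2000 UMIs, with exact binomial 95% intervals. Calb2 alone fell from 51.5% in NB2 to 5.01% in GCimm2, Calb1 alone reached 19.3% in GCyoung, and nuclei with both stayed below 0.5% in every cluster shown.

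The α subunit of CaMKII, the abundant forebrain form, came up abruptly. Camk2a was at 24.2, 39.4 and 60.5 CPM in NB1 of w1, w2 and w4, levels below the pooled 64.6 CPM of RGL, and oligodendrocytes had 54.6 CPM. In GCimm1 it was at 18.3 CPM in w1, 96.7 CPM in w2 and 115 CPM in w4, higher than NB1 in 2 of 3 libraries. This increase (log2 1.19, SE 0.24, adjusted p = 1.6e-04) was no longer called without w2 (0.91, adjusted p = 0.14). In GCimm2, by contrast, the gene was at 624, 540 and 540 CPM in w2, w4 and w8, far above every GCimm1 library, and the rise of log2 2.81 (SE 0.22, adjusted p = 4.4e-14) was the largest of the group at that step. GCyoung added log2 1.29 (SE 0.23, adjusted p = 1.5e-05), at 1159 CPM in w4 and 1102 CPM in w8. GCmat1 had 1345 CPM in the 17 nuclei of w1, 1370 CPM in w4 and 1268 CPM in w8. From NB1 to GCmat1 the rise came to log2 5.66 (SE 0.26, adjusted p = 7.6e-25).

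The β subunit, which also binds actin, preceded α. Camk2b rose from NPC to NB1 by log2 3.01 (SE 0.30, adjusted p = 4.4e-12), from 32.1 to 256 CPM in w1, from 46.2 to 281 CPM in w2 and from 26.2 to 222 CPM in w4. It then stayed within 184 to 375 CPM through NB2 and GCimm1 of all libraries and GCimm2 of w2 and w4, and at 493 CPM in GCimm2 of w8, without a called step. A second rise came from GCimm2 to GCyoung (log2 0.98, SE 0.21, adjusted p = 3.3e-04), to 658 CPM in w4, 1.75-fold (interval 1.63 to 1.88), and 614 CPM in w8, 1.25-fold (interval 0.982 to 1.6); without w4 it was 0.70 (adjusted p = 0.31). Over all libraries, Camk2a made up 69.2% of the UMIs of the pair in RGL and 63.8% in NPC. It made up 10.6% in NB1 (interval 9.58 to 11.7%) and 24.1% in GCimm1. It made up 62.6% in GCimm2 and 69.8% in GCmat1. The libraries differed, with 8.64, 12.3 and 21.4% in NB1 and 5.45, 24.6 and 27.1% in GCimm1 of w1, w2 and w4. In w1 the share was thus not higher in GCimm1 than in NB1. These shares are of UMIs, which also depend on gene length, and their change between clusters is what can be read.

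The δ and γ subunits, the forms found in many tissues, behaved otherwise. Camk2d was a gene of the stem cell end of the lineage, with 194, 196, 163 and 284 CPM in RGL of w1, w2, w4 and w8. It was at 30.1, 27.7 and 39.3 CPM in NPC, a fall of log2 -2.92 (SE 0.34, adjusted p = 5.1e-10), and at 1.26, 0.978 and 13.4 CPM in NB1, a further fall of log2 -3.85 (SE 0.63, adjusted p = 1.6e-06), both in 3 of 3 libraries and under every alternative with a test. From NB1 on it was at 2.81 CPM or less in every pooled cluster, and the 209 GCmat2 nuclei had no UMI (limit of 3 counts, 1.92 CPM). Outside the lineage it was at 257 CPM in astrocytes, 154 CPM in oligodendrocyte precursors, 458 CPM in pericytes and 22.8 CPM, from 5 UMIs, in oligodendrocytes.

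Camk2g was the most even of the group. It lay between 46.6 and 157 CPM in every library of every lineage cluster. RGL, at 131, 128, 107 and 147 CPM, was above NPC in 2 of 3 libraries, and the fall of log2 -0.82 (SE 0.22, adjusted p = 3.0e-03) was not called without w2 (-0.59, adjusted p = 0.15) or after thinning (-0.51, adjusted p = 0.11). From NB1 to GCmat1 the fit gave a rise of 0.84 (SE 0.19, adjusted p = 3.3e-04), larger than the pooled levels of 67.0 and 74.8 CPM show. The TMM scaling factors of the fit were 1.04 to 1.13 for the NB1 sums and 0.707 to 0.99 for those of GCmat1, so that equal CPM count as a rise between these clusters. Astrocytes, at 552, 498 and 520 CPM in w1, w2 and w4, had more Camk2g than any lineage cluster.

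Camk4, the nuclear kinase upstream of CREB, peaked in immature neurons. It was nearly absent from NPC, with 5 UMIs in 211 nuclei, and reached 72.8, 93.4 and 58.3 CPM in NB1 of w1, w2 and w4 (log2 4.03, SE 0.60, adjusted p = 2.7e-07). The next rise, to GCimm1, was log2 2.29 (SE 0.22, adjusted p = 8.3e-12), with 226 CPM in w1, 419 CPM in w2 and 479 CPM in w4, all above the NB1 values. In GCimm2 the gene was at 432, 460 and 500 CPM in w2, w4 and w8, and the difference from GCimm1 was not called (0.31, adjusted p = 0.48). It then fell in GCyoung to 133 CPM in w4 and 147 CPM in w8 (log2 -1.40, SE 0.26, adjusted p = 2.5e-05), in both libraries and under every alternative with a test. The course was thus a pulse that covered GCimm1 and GCimm2. Over the whole interval from NB1 to GCmat1 the fitted change of 0.77 (adjusted p = 0.018) rested on w4, where the level went from 58.3 to 138 CPM, while w1 went from 72.8 to 57.6 CPM; without w4 it was 0.05 (adjusted p = 0.95), without w2 0.77 (adjusted p = 0.063) and with clusters made anew -0.14 (adjusted p = 0.74).

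Camk1d, a CaMKI isoform, dipped before it rose. It was at 64.9, 59.4 and 62.7 CPM in NB1 and at 18.3, 31.2 and 31.4 CPM in GCimm1 of w1, w2 and w4, the cluster with its lowest pooled level in the lineage (log2 -0.91, SE 0.19, adjusted p = 2.2e-04). The values of the 2 clusters did not overlap. It rose again in GCimm2, to 57.1 CPM in w2 and 56.1 CPM in w4, while the 28 nuclei of w8 had 133 CPM from 20 UMIs (log2 1.17, SE 0.19, adjusted p = 7.4e-06), and in GCyoung, to 192 CPM in w4, 3.43-fold, and 231 CPM in w8, 1.73-fold (log2 1.79, SE 0.19, adjusted p = 1.4e-10). GCmat1 held 288, 235 and 304 CPM in w1, w4 and w8, and the total rise from NB1 was log2 2.41 (SE 0.19, adjusted p = 4.8e-16). Among female nuclei alone the dip was -0.62 (adjusted p = 0.097), and among male nuclei alone the rise to GCimm2 was 0.88 (adjusted p = 0.14), neither of them called. The smaller changes earlier on, -0.80 from RGL to NPC and 0.75 from NPC to NB1, were each lost under several alternatives, the second also with RLE (0.63, adjusted p = 0.063), with DESeq2 (0.63, adjusted p = 0.1), without the library term (0.74, adjusted p = 0.091), after thinning (0.97, adjusted p = 0.062) and in either sex alone. With clusters made anew without these genes they were -0.35 (adjusted p = 0.26) and 0.20 (adjusted p = 0.54); without w1 they were -0.62 and 0.64, both with an adjusted p of 0.26, and without w4 -0.69 (adjusted p = 0.1) and 0.73 (adjusted p = 0.075), and without w2 the second was 0.86 (adjusted p = 0.1). Outside the lineage pericytes had 907 CPM and astrocytes 200 CPM.

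Camk1g, which encodes CaMKIγ, a membrane-anchored kinase of dendrites, was the sparsest gene, with 370 UMIs in all nuclei. It was highest in the same clusters as Camk4, with 10.2 CPM in w2 and 11.7 CPM in w4 in GCimm1 and 11.4 and 20.7 CPM in GCimm2. In w1 GCimm1 had 1 UMI, and Camk1g was at 5.13 CPM or less in every library of the other lineage clusters. The rise from NB1 to GCimm1 was log2 2.17 (SE 0.48, adjusted p = 5.8e-04) and the fall from GCyoung to GCmat1 log2 -2.54 (SE 0.64, adjusted p = 9.0e-03). Both rested on few counts: without w2 the rise was 2.06 (adjusted p = 0.21), without w4 the fall was -3.90 (adjusted p = 0.058), and without w8 it was -1.88 (adjusted p = 0.3). DESeq2 gave -2.78 for the fall (adjusted p = 0.086) and female nuclei alone -1.65 (adjusted p = 0.41). The fall from GCimm2 to GCyoung (-1.36, adjusted p = 0.02) came from w4 alone, since GCimm2 of w8 had no UMI, and without w4 it was 1.54 (adjusted p = 0.87), in the other direction; without w2 it was -1.47 (adjusted p = 0.063).

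Camkk2, for a kinase that activates CaMKI and CaMKIV, made 1 called step between neighbouring clusters. Earlier, NPC had 40.1, 21.6 and 52.4 CPM in w1, w2 and w4, above RGL at 17, 20.7 and 22.8 CPM. Camkk2 was called neither from RGL to NPC (log2 0.57, adjusted p = 0.21) nor from NPC to NB1 (-0.10, adjusted p = 0.85). It was at 22.8, 31.6 and 31.4 CPM in NB1 and at 50.4, 54.4 and 51.1 CPM in GCimm1 of w1, w2 and w4, without overlap (log2 1.03, SE 0.18, adjusted p = 9.2e-06). From there it lay between 44.1 and 59.5 CPM in every library of GCimm2, GCyoung, GCmat1 and GCmat2, and no later step was called. The rise from NB1 to GCmat1 was log2 1.39 (SE 0.22, adjusted p = 3.6e-07). In CPM it was smaller, 2.25-fold in w1 (interval 0.953 to 4.55) and 1.41-fold in w4 (0.813 to 2.63), and both intervals held 1. The scaling factors given for Camk2g apply to this step as well. The 45 oligodendrocytes had no UMI of Camkk2 (limit of 3 counts, 13.7 CPM), and Camkk2 and Camk4 both rose from NB1 to GCimm1.

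Along the pseudo-time that the authors fitted to the lineage, in bins of 2 units, the courses could be placed more finely than by cluster. Calb2 went from 8.03 CPM at 8 to 10 units to 226 CPM in the next bin, peaked at 250 CPM at 12 to 14 and was down to 60.3 CPM at 18 to 20 and 12.5 CPM at 20 to 22. Calb1 was still at 5.98 CPM at 18 to 20 and reached 34.0 CPM at 20 to 22. Camk2a was ahead of it, with 60.1 CPM at 16 to 18, 306 CPM at 18 to 20 and 819 CPM at 20 to 22. Camk2a was thus up in a bin in which Calb1 was still low. The same was seen in w2, whose nuclei in that bin were mainly GCimm1, and in w4, where they were mainly GCimm2, Camk2a being at 306 CPM in each at 18 to 20 while Calb1 was at 4.58 and 11 CPM.

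Camk4 had its maximum of 494 CPM in the same bin, 18 to 20, and was at 264 CPM at 24 to 26, 82.3 CPM at 26 to 28, 100 CPM at 28 to 30 and 53.9 CPM at 30 to 32. In w4 the decline was not steady, with 80.6 CPM at 26 to 28 and 113 CPM at 28 to 30, both bins mainly GCyoung. In w8 Camk4 was at 101, 92 and 54.2 CPM at 26 to 28, 28 to 30 and 30 to 32. Camk1d showed a local high of 116 CPM at 10 to 12 units, against 57.2 CPM in the bin before and 35.2 CPM in the bin after, and w1, w2 and w4 had 118, 119 and 70.1 CPM there. At 14 to 16 units, still mainly NB1, Camk1d was at 32.5 CPM, and at 16 to 18, mainly GCimm1, at 31.3 CPM. Most of the fall called from NB1 to GCimm1 thus lay between bins that were mainly NB1. This early neuroblast high, which the cluster averages hide, was chosen after the values were seen. Camk2d was at 192 CPM in the first bin, 39.9 CPM at 6 to 8, 7.03 CPM at 8 to 10 and 1.04 CPM at 10 to 12, so that it was gone before Calb2 reached its peak. Pseudo-time, too, was derived from these measurements, and no test was made along it.

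**Figure D4:**
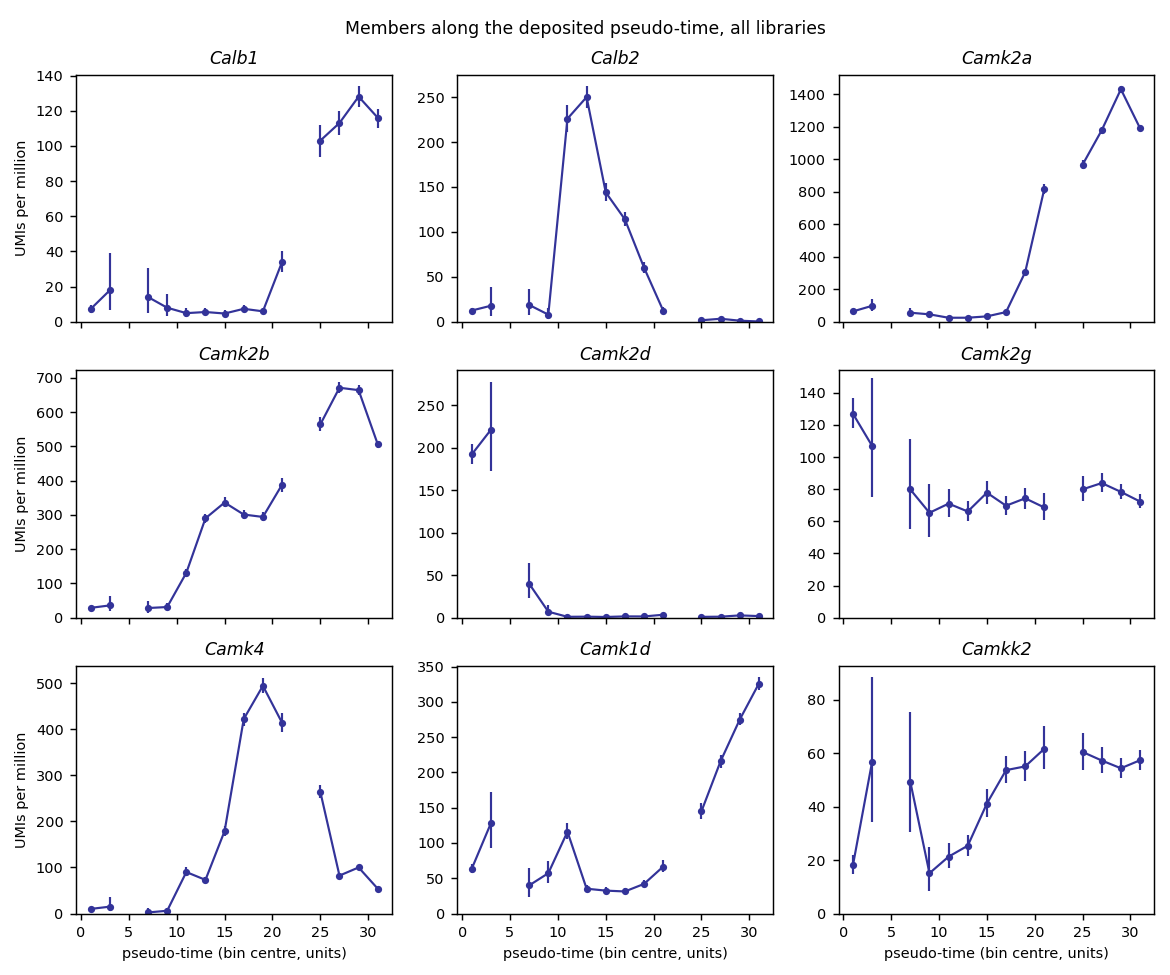
Level in CPM (vertical axes, linear) of 9 of the genes in bins of 2 pseudo-time units (horizontal axis, bin centre) over all libraries, with 95% Poisson intervals; lines are broken where a bin had fewer than 20 nuclei, and Camk1g is left out for its low counts. Calb2 peaked at 250 CPM and Camk4 at 494 CPM, and Camk2a and Calb1 reached their highest values, 1432 and 128 CPM, at 28 to 30 units.

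Within a cluster, the pools of different weeks also differed. The counting intervals of the ratios do not cover differences between pools of animals, and week and pool cannot be told apart. In GCmat1 Camk4 was at 138 CPM in w4 and at 72.2 CPM in w8, a ratio of 0.525 (interval 0.475 to 0.581). In GCyoung and GCmat2 its ratios were 1.1 (0.954 to 1.27) and 1.21 (0.931 to 1.6). Camk2b in GCmat1 was at 735 and 529 CPM, a ratio of 0.719 (0.690 to 0.750). Camk1d went the other way, at 235 and 304 CPM (1.3, interval 1.21 to 1.39), and it was also higher in w8 in GCyoung (1.2) and GCmat2 (1.67). Calb1 was lower in w8 than in w4 in each of GCyoung, GCmat1 and GCmat2, with ratios of 0.752, 0.848 and 0.442. In GCimm1 Camk4 and Camk2a were lowest in w1, at 226 and 18.3 CPM, and Calb2 was lowest in w4. The labels give w4 and w8 no other difference than the time after tamoxifen, but the sexes were unequal, with 2995 female and 659 male nuclei called in w4 and 419 and 2650 in w8. The authors had also set aside, before making their table, a group of w4 nuclei with mostly male expression that they took for a possible outlier animal, and the part of this in the differences between w4 and w8 was not tested.

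**Figure D5:**
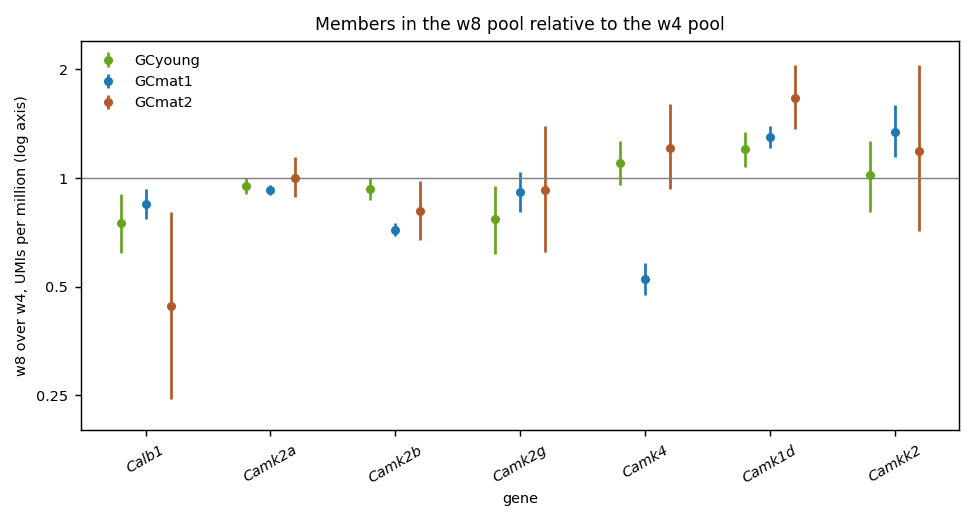
Ratio of the level in the w8 pool to that in the w4 pool (vertical axis, log scale) in GCyoung, GCmat1 and GCmat2, for genes with at least 20 UMIs in both, with exact 95% intervals of counting error. Camk4 and Camk2b lay below 1 in GCmat1 (0.525 and 0.719) and Camk1d above 1 in all 3 clusters (1.2, 1.3 and 1.67).

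Nuclei were called male or female from sex-linked transcripts, and the main differences between w4 and w8 were checked in each sex. In GCmat1 Camk4 was at 137 CPM in w4 and 43.6 CPM in w8 among female nuclei, and at 125 and 76.8 CPM among male nuclei. Camk2b was at 740 and 514 CPM in females and 732 and 532 CPM in males. Both differences had the same direction in either sex. Camk1d, however, was at 228 and 299 CPM in females and at 302 and 304 CPM in males, so that its higher level in w8 was seen among female nuclei. Calb1 was at 145 and 101 CPM in females and 125 and 124 CPM in males, so that its lower level in w8 was likewise seen among female nuclei. GCmat1 of w4 held 403 nuclei of both sexes together, and differences between the sexes were not tested.

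The authors left 216 GCmat1 nuclei of w8 without a pseudo-time, and their levels differed from those of the 2711 others of that library and cluster. Camk1d was at 150 CPM in them and at 320 CPM in the rest, and Camk2b at 413 and 541 CPM. Camk4 was higher, at 112 against 68.1 CPM, and Calb1 was at 136 against 118 CPM, with counting intervals of 121 to 151 and 114 to 123 CPM. The study's methods describe GCmat1 nuclei left out of the pseudo-time fit as carrying a strong signal of ventral genes. The number stated there is larger than 216, and whether the 216 nuclei are all among them was not examined.

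GCmat2 differed from GCmat1 in more than Calb1. Camk2a was at 754 and 757 CPM in w4 and w8, below the 1268 to 1370 CPM of GCmat1 (log2 -0.99, SE 0.23, adjusted p = 2.2e-03), and Camk2b at 376 and 305 CPM, below the 487 to 735 CPM of GCmat1 (log2 -0.92, SE 0.22, adjusted p = 2.8e-03). Camk4, at 166 and 201 CPM, was above every GCmat1 library (log2 0.84, SE 0.27, adjusted p = 0.042). The median change of all genes was -0.14 in this comparison and -0.03 with RLE scaling; relative to the median the 4 called changes were -1.91 for Calb1, -0.85 for Camk2a, -0.78 for Camk2b and 0.98 for Camk4, and with RLE -1.90, -0.90, -0.82 and 0.97. Calb1 was the 1 call that held throughout. With clusters made anew Camk2a was at -0.61 (adjusted p = 0.06) and Camk2b at -0.53 (adjusted p = 0.095), without w4 they were at -0.87 (adjusted p = 0.19) and -0.90 (adjusted p = 0.1), and without w8 Camk2b was at -0.89 (adjusted p = 0.1) and Camk4 at 0.30 (adjusted p = 0.88), and without w2, from which neither cluster entered the fit, Camk4 was at 0.85 (adjusted p = 0.061). DESeq2 gave 0.92 for Camk4 (adjusted p = 0.39), and without the library term Camk4 was at 0.86 (adjusted p = 0.16) and Camk2a at -0.81 (adjusted p = 0.15). Among female nuclei Camk4 was at 0.50 (adjusted p = 0.68), Camk2a at -0.93 (adjusted p = 0.1) and Camk2b at -0.94 (adjusted p = 0.084), and among male nuclei Camk2a was at -0.69 (adjusted p = 0.4).

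Other genes of the pathway moved at the same stages in part. A list of 8 held further calmodulin kinase genes and genes for inhibitors and phosphatases of the kinases. Of these, 3 rose from NPC to NB1 (14.7% of all genes rose) and 3 from NB1 to GCimm1 (7.76%). Another 3 calls were rises from GCimm1 to GCimm2 (6.52%). From GCimm2 to GCyoung 3 rose (9.27%) and 2 fell (9.62%). From NB1 to GCmat1, where 20.2% of all genes rose and 19.9% fell, 5 rose and 2 fell, with a median log2 change of 1.06 against -0.04 for all genes. Camkk1, the paralog of Camkk2, rose by 3.66 (adjusted p = 2.5e-15) and the pseudokinase gene Camkv by 3.01 (adjusted p = 8.6e-17) over that interval. Camk1, by contrast, fell by 2.54 on the log2 scale (adjusted p = 7.5e-09). Pnck, a further CaMKI gene, rose by 3.65 from NPC to NB1 (adjusted p = 9.5e-06).

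Of 7 genes for calmodulin and for neuronal proteins that bind it, 6 were tested, and from NB1 to GCmat1 1 rose and 1 fell, with a median of 0.07, a share no higher than the 40.1% of all genes called. Nrgn (neurogranin), a postsynaptic calmodulin-binding protein, rose by 1.96 (adjusted p = 3.8e-11), while Gap43, its growth cone counterpart, fell by 4.04 on the log2 scale (adjusted p = 7.0e-12). The calmodulin gene Calm2 rose by 0.74 from RGL to NPC (adjusted p = 1.8e-03).

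Among 14 other EF-hand buffers and sensors, 12 were tested, of which 7 rose from GCimm1 to GCimm2 (6.52% of all genes) and 7 rose and 1 fell from NB1 to GCmat1 (20.2% and 19.9% of all genes), with medians of 0.78 and 1.19. Cabp1 and Caln1, 2 neuronal relatives of calmodulin, rose from NPC to NB1 by 5.70 (adjusted p = 1.2e-08) and 4.29 (adjusted p = 5.5e-09). Ncald (neurocalcin) and Vsnl1 (visinin-like protein) rose from NB1 to GCmat1 by 3.16 (adjusted p = 1.1e-17) and 2.76 (adjusted p = 8.8e-13).

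Calcineurin, the calcium-activated phosphatase that opposes the kinases, and its regulators were 9 genes, of which 5 rose and 2 fell from NB1 to GCmat1 (median 0.95, against 20.2% and 19.9% of all genes). The catalytic subunit gene Ppp3ca rose by 2.05 (adjusted p = 4.2e-11) and the regulatory subunit gene Ppp3r1 by 2.00 (adjusted p = 2.9e-07), the anchoring protein gene Akap5 rose by 1.60 (adjusted p = 4.9e-03, in 1 of 2 libraries), and the inhibitor gene Rcan2 fell by 3.42 on the log2 scale (adjusted p = 4.4e-07).

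Of 11 CREB and MEF2 factors and coactivators, targets of these kinases and of calcineurin, 3 rose and 1 fell from NB1 to GCmat1 (median 0.13), a share below the 40.1% of all genes called. Mef2c rose by 1.61 (adjusted p = 3.1e-10), the CREB coactivator gene Crtc1 by 1.38 (adjusted p = 3.9e-09) and Mef2d by 1.08 (adjusted p = 2.3e-06), while Creb1 fell by 1.19 on the log2 scale (adjusted p = 2.8e-07). Of 6 calmodulin-regulated enzymes of cAMP metabolism, 4 rose and 1 fell over the same interval (median 1.66, against 20.2% and 19.9% of all genes). The adenylyl cyclase genes Adcy1 and Adcy8 rose by 4.79 (adjusted p = 1.8e-23) and 4.28 (adjusted p = 1.1e-09, in 1 of 2 libraries), and the phosphodiesterase gene Pde1c fell by 3.30 on the log2 scale (adjusted p = 2.4e-13). Pde1a fell by 3.42 from NPC to NB1 (adjusted p = 4.9e-12).

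Over the 29 sums of the fit and 8151 genes that reached 50 CPM in at least 1 of them, the gene most like each of the 10 in its log2 CPM was found by Pearson's r, as a description, since the sums share libraries and clusters. Closest to Calb1 were Rock2 (0.881), Rasgef1a and Ttll11, and closest to Calb2 were Tac2 (0.884), itself a neuroblast marker, A730004F24Rik and Rab2b. Camk2a was nearest to Nsf (0.962), followed by Il1rap and 9530059O14Rik, and Camk2b to Nrg3 (0.964), Caln1 and RP24-68G17.4. Camk2d was nearest to Fgd6 (0.947), Cbs and C030037D09Rik, and Camk2g to Atp13a4 (0.900), Wasf3 and Acss2. Camk4 was nearest to Gm20696 (0.945), Scn3a and Slitrk5, and Camk1d to Acap2 (0.95), Kcnn3 and Kirrel3. Camkk2 was nearest to Slco3a1 (0.925), whereas the sparse Camk1g had no r above 0.776, with Fam110b, Cntn6 and Sema6d. Among the 10 genes, Calb1 and Camk2a had an r of 0.79 and Calb1 and Calb2 one of -0.37.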

How the data were processed

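The authors aligned and counted the reads with STARsolo 2.7.4a on mm10 (GRCm38), over exons and introns, and deposited UMI counts per gene and barcode for each library, whole numbers without normalization. A second deposited file holds log2 values, counts divided by scran size factors with 1 added, and assigns nuclei to libraries, clusters and pseudo-times. The 14367 nuclei of that file, of 17046 barcodes, and their clusters were used. Multi-mapped reads were left out, and the authors had removed doublets with scDblFinder and low-quality nuclei. The study's cluster comparison, a test over single nuclei, was replaced by one over sums. Counts were summed per library and cluster (29 sums of at least 10 nuclei) and fitted with edgeR 4.0.16 (filterByExpr, TMM, glmQLFit, glmQLFTest) with cluster and library as terms, 16 residual degrees of freedom and a common dispersion of 0.0142. Adjusted p-values are Benjamini-Hochberg over the 13513 genes tested. Each library is 1 pool, so that the spread is that between sums and not between animals. The fit was tested on simulated data. From GCimm2 to GCyoung it recovered 32 of 73 genes changed by log2 1, 48 of 53 changed by log2 2 and 70 of 74 changed by log2 3. There were 27 false calls among 13149 genes tested. For NB1 to GCimm1 these were 45 of 70, 57 of 61 and 67 of 69, with 14 false calls among 13104 genes tested. A change of log2 1 can thus go uncalled. Alternatives were RLE, DESeq2 1.42.0, no filter, no library term, other minimum sizes and folds, each sex, thinning, clusters made anew without the listed genes, mean log2 differences and each library left out. The 10 genes were all named. Pathway genes were named by the largest called changes (at most 4 per list) and likeness by the 3 highest r, and some items that these rules name are not reported here. Members and lists were chosen with earlier results of these data known. Sequences are from GENCODE M21 transcripts. R 4.3.3 and Python 3.11.15 were used.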

Additional observations from a re-analysis of the deposited data

Results flagged for a closer look

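Some values stood apart between weeks, and none of these differences between weeks was tested. From GCyoung to GCmat1, Camk2b was 1.12-fold higher in w4 (interval 1.07 to 1.17) and 0.861-fold, that is lower, in w8 (0.804 to 0.922), so that the pooled fit gave -0.04. From NB1 to GCimm1, Camk2d had a ratio of 4.86 in w1 (interval 1.07 to 18.1) and of 0.0458 in w4 (0.000995 to 0.377), from 8 and 4 UMIs in w1 and 6 and 1 UMIs in w4.

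The barcodes of w4 without a column in the authors' table, 1628 of 2679 in all libraries, entered no comparison and held signal of all 10 genes. Calb1 was at 54.6 CPM, Calb2 at 7.41 CPM, Camk2a at 1053 CPM, Camk2b at 498 CPM, Camk2d at 17.7 CPM, Camk2g at 64.9 CPM, Camk4 at 78.4 CPM, Camk1d at 152 CPM, Camk1g at 2.91 CPM and Camkk2 at 20.5 CPM. In the same order, the nuclei of w4 in the table had 94.4, 12.8, 965, 567, 12.3, 86, 176, 168, 6.02 and 52.5 CPM. By the study's methods, those barcodes include the w4 nuclei set aside as a possible outlier animal.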

How the results depend on the processing

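Of 38 calls of the 10 genes over the 9 comparisons, 20 stayed called under every alternative with a test. Direction reversed in 2 cases, Camk1g from GCimm2 to GCyoung without w4 (1.54; leaving out 1 library gave -1.53 to 1.54) and Camk4 from NB1 to GCmat1 with clusters made anew (-0.14). The number of genes called went from 3 to 1 (RGL to NPC) and from 4 to 1 (GCmat1 to GCmat2) at a fold change of at least 2. With sums of at least 20 nuclei NB1 to NB2 gave 2 in place of 1. Among female nuclei NB1 to NB2 gave 0, GCyoung to GCmat1 0 and GCmat1 to GCmat2 1, and among male nuclei GCimm1 to GCimm2 gave 2 and GCyoung to GCmat1 0. For GCyoung to GCmat1, in place of 1, DESeq2 gave 0, thinned nuclei 0 and clusters made anew 2; for GCmat1 to GCmat2, no library term gave 2 in place of 4. Leaving out 1 library gave 3 to 6 from NB1 to GCimm1, 4 to 7 from GCimm2 to GCyoung, 0 to 1 from GCyoung to GCmat1 and 2 to 4 from GCmat1 to GCmat2. The cause of these shifts was not tested. Camk1g was not tested among male nuclei or after thinning, which its counts did not pass. The mean log2 difference per nucleus has no test and gave no count, but no called gene changed sign with it. With DESeq2 in place of TMM and edgeR, the share of calls that were higher went from 50.1 to 40.1% for NPC to NB1, from 61.5 to 72.7% for NB1 to NB2, from 49.1 to 37.4% for GCimm2 to GCyoung, from 41.5 to 24.5% for GCyoung to GCmat1 and from 41.3 to 55.4% for GCmat1 to GCmat2. Clusters were compared within libraries through the library term. A further paired analysis by replicate number could not be made, since each week has 1 library. Depth limits Camk1g, and Camk2d and Calb2 where they are near 0.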
